A study of Mus musculus with 9 samples.

Results

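The 9 genes described here encode subunits of the NADPH oxidases and the Rac GTPases that act with them. They are Cybb, Cyba, Ncf1, Ncf4, Rac1, Rac2, Nox1, Noxo1 and Noxa1, and they were chosen by gene symbol among the 56691 genes of the deposited table. The RNA came from RAW264.7, a mouse macrophage line that forms osteoclasts, the bone-resorbing cells, when it is given the cytokine RANKL. Untreated cells (control), cells given RANKL, and cells given RANKL together with the nucleoside uridine (RANKL + UD) were harvested after 3 days of culture, with 3 libraries in each group and 9 in all. All groups share this single cell line, and the uridine dose of these libraries is not given in the sources used here. The labels call the libraries biological replicates.

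NADPH oxidases move electrons from NADPH across a membrane to oxygen and so make superoxide. In the phagocyte enzyme, the catalytic subunit gp91phox (Cybb, also called NOX2) is held in the membrane by p22phox (Cyba), and cytosolic proteins including p47phox (Ncf1) and p40phox (Ncf4) join it together with a Rac GTPase when the cell is stimulated. NOX1 is a related catalytic subunit that also pairs with p22phox and works with the organizer NOXO1 and the activator NOXA1, and reactive oxygen species are known to take part in osteoclast formation.

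Promoter windows of 3 members are printed because their transcripts had different courses: Nox1 rose with RANKL and fell with UD, Cybb fell with RANKL, and Ncf1 fell at both steps. Each window runs from 250 bases before to 50 bases after the RefSeq gene start on assembly GRCm38.p6, 5′ to 3′ on the gene's strand. The windows are Cybb at chrX:9469275-9469574 (minus strand), Nox1 at chrX:134111805-134112104 (minus strand) and Ncf1 at chr5:134229576-134229875 (minus strand). Capitals mark matches on either strand to the PU.1 core GAGGAA, to the AP-1 motif TGANTCA or to the NFAT core GGAAA.
Cybb: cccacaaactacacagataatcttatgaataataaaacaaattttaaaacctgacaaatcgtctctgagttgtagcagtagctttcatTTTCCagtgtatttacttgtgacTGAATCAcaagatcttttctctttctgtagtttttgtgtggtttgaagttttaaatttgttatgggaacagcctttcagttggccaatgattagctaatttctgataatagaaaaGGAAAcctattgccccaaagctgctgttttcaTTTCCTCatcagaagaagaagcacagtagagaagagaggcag
Nox1: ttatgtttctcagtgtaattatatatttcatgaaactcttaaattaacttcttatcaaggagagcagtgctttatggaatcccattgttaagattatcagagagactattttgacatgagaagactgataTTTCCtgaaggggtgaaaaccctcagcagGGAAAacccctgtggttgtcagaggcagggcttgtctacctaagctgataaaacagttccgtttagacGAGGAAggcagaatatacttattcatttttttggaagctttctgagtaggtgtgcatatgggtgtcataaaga
Ncf1: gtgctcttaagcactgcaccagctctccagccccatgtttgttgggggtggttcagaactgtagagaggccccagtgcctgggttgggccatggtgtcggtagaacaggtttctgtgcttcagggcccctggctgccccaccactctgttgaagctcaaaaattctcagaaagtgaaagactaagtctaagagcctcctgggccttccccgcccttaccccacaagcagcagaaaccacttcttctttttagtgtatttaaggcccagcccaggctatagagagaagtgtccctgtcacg
The Cybb window held 1 match to the PU.1 core, 1 to the AP-1 motif and 3 to the NFAT core, and its PU.1 match overlapped an NFAT match. The Nox1 window held 1 PU.1 match, 0 AP-1 matches and 2 NFAT matches, whereas the Ncf1 window held 0 of each. Among all 32851 RefSeq windows of this length, 28.3% held the PU.1 core, 7.81% the AP-1 motif and 61.3% the NFAT core. A match is a run of letters and not evidence of binding. RefSeq windows were matched for 6 of the 9 members, and none was available for Ncf4, Rac1 and Rac2.

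Total counts ranged from 15951800 to 19746862 per library. Levels are given as FPKM, counts scaled to the exon length of the gene and to the total of the library, which can be compared between genes. Fold changes came from edgeR's quasi-likelihood test on the counts of all 9 libraries, for the 11995 genes that reached an FPKM of 1 in 3 or more libraries. A gene is said to have changed where its Benjamini-Hochberg adjusted p was under 0.05. Of the 9 members, 7 were tested. Nox1 was among them only through its RANKL and RANKL + UD libraries, which favoured its rise with RANKL. In bulk RNA, fewer cells of a type and less RNA per cell cannot be told apart. Summed FPKM of 9 osteoclast markers was 46.9 to 50.1 in control libraries, 2641 to 2844 in RANKL libraries and 1666 to 1703 in those of RANKL + UD. Summed FPKM of 8 macrophage markers was 9420 to 10012, 2528 to 2772 and 2205 to 2339 in the same order. Of the 8 osteoclast markers tested, 8 rose with RANKL and 8 fell in RANKL + UD against RANKL, among them Oscar by 1.53, Mmp9 by 1.34 and Itgb3 by 1.07 on the log2 scale. Itgb3 passed the filter only through its RANKL libraries (FPKM 1.75, 1.29 and 1.27), which favoured its rise and its later fall. Mmp9, Oscar and Acp5 also needed their RANKL and RANKL + UD libraries to pass, which favoured their rise with RANKL. Their FPKM in control was 0.32 to 0.57, 0 to 0.19 and 0.8 to 1.05. Of the macrophage markers, 7 fell and 1, Cd68, rose with RANKL, and 6 fell and 1, Adgre1, rose in RANKL + UD against RANKL. These marker levels changed in the same comparisons as the oxidase genes described next, and their part in those results was not tested. Lists of 6 neutrophil, 6 lymphocyte and 6 stromal markers had no gene that passed the filter, and their summed FPKM reached at most 0.25, 0.29 and 1.84.

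RANKL moved the oxidase genes in both directions. Against control, 4 of the 7 tested members rose (Nox1, Rac2, Cyba and Ncf4) and 3 fell (Cybb, Ncf1 and Rac1), beside 27.3% of all tested genes that rose and 30.2% that fell. The median log2 change was 0.13 over the 7 members and -0.03 over all tested genes. In RANKL + UD against RANKL, 4 members fell (Nox1, Ncf1, Ncf4 and Cyba), 2 rose (Cybb and Rac2) and Rac1 was not called, beside 18.6% of all tested genes that rose and 20.2% that fell. The median there was -0.28 over the members and 0.00497 over all tested genes. Against control, RANKL + UD had 2 members higher (Nox1 and Rac2), 4 lower (Cybb, Ncf1, Rac1 and Ncf4) and Cyba not called, beside 26.7% and 27.3% of all tested genes. Libraries did not overlap in FPKM for 6 of the 7 members in each comparison, beside 61.7% of tested genes for RANKL against control, 51.7% for RANKL + UD against RANKL and 59.9% for RANKL + UD against control. The comparisons share libraries, so they are not independent of each other.

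**Figure D1:**
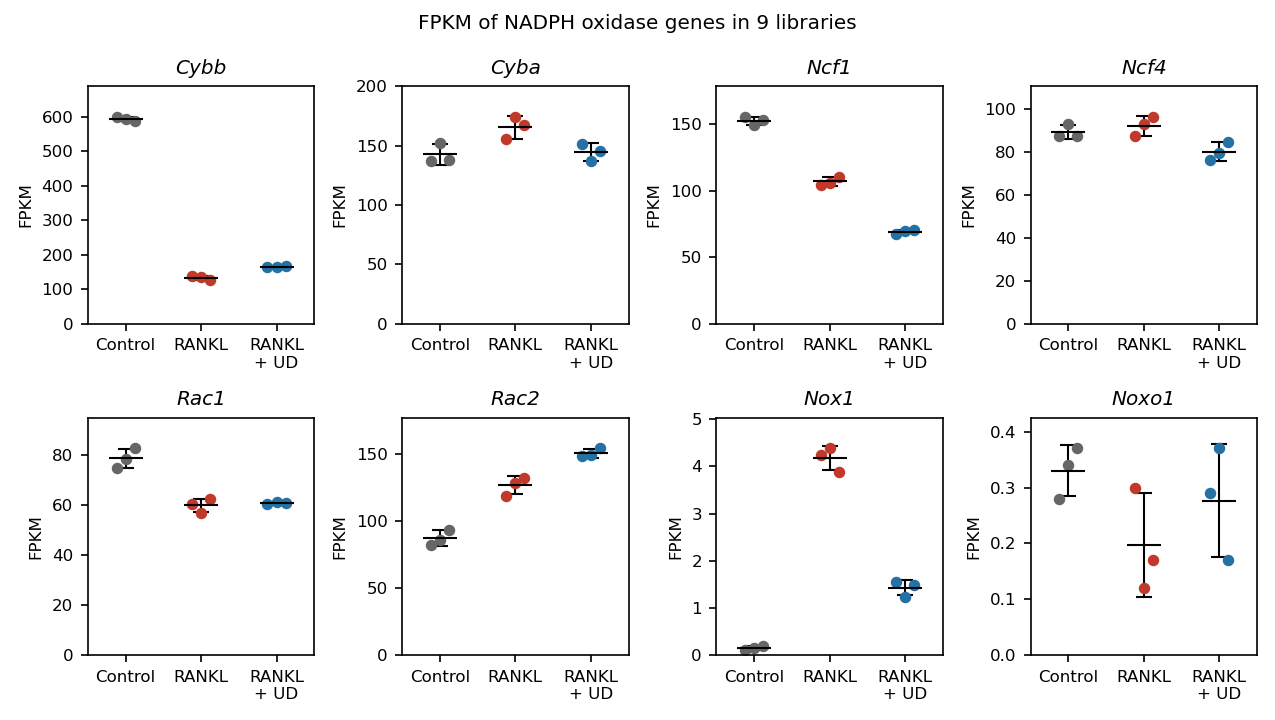
FPKM of 8 of the 9 oxidase genes in each library of the control, RANKL and RANKL + UD groups, with every axis starting at 0. Points are libraries, and bars are the mean and SD of 3. Cybb falls from about 594 to 133 with RANKL, while Nox1 rises from 0.147 to 4.17 and lies at 1.42 under RANKL + UD. Noxa1, at 0 in all 9 libraries, is not drawn.

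Cybb, the catalytic subunit of the phagocyte oxidase, was by FPKM the most abundant member in control. Its gene lies at chrX:9301491-9354010 on the minus strand in the coordinates of the deposited table. Its FPKM was 599.5, 594.2 and 588 in the control libraries, 137, 136 and 127 with RANKL, and 163, 164 and 168 under RANKL + UD. The groups did not overlap: every control library was far above the rest, and each RANKL + UD library was above each RANKL library. By mean FPKM, Cybb ranked 41 among the tested genes in control, 297 after RANKL and 228 where UD was added. Cybb fell 4.19-fold with RANKL (log2 change -2.07, SE 0.0457, edgeR adjusted p = 3.91e-19). It rose 1.16-fold in RANKL + UD against RANKL (log2 change 0.22, SE 0.0443, edgeR adjusted p = 0.000474). Even so it stayed 3.60-fold below control (log2 change -1.85, edgeR adjusted p = 2.62e-18).

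Nox1, the catalytic subunit of the second oxidase, had the opposite course at far lower levels. Its gene is listed at chrX:132987170-133122705 on the minus strand. Reads of Nox1 numbered 6, 9 and 10 in the control libraries, 277, 280 and 247 with RANKL, and 100, 67 and 85 under RANKL + UD. The corresponding FPKM was 0.11, 0.14 and 0.19 in control, 4.25, 4.38 and 3.89 with RANKL, and 1.54, 1.24 and 1.49 under RANKL + UD. No library of one group reached the range of another. Nox1 rose 30.4-fold with RANKL (log2 change 4.93, SE 0.223, edgeR adjusted p = 5.14e-14), and the small control counts limit the precision of that fold. Passing the filter only through the treated groups favoured this rise. Nox1 fell 3.10-fold in RANKL + UD against RANKL (log2 change -1.63, SE 0.155, edgeR adjusted p = 4.81e-08), and remained 9.79-fold above control (log2 change 3.29, edgeR adjusted p = 3.95e-10).

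The gene model of Nox1 shares 399 bases with Cstf2 on the opposite strand, 20528 bases with Arl13a on the opposite strand, and 13034 bases with Xkrx on its own strand, from which counting by strand could not separate it. The libraries were prepared with strand marking, but whether the counting used strand is not given in the sources used here, so the counts of Nox1 are uncertain on both grounds. Mean FPKM of Cstf2, an RNA processing factor, was 11.3 (control), 15.6 (RANKL) and 17.3 (RANKL + UD), and so it was highest where Nox1 was intermediate. Xkrx lay at 0.237, 0.38 and 0.39, and Arl13a at 0.11, 0.13 and 0.453.

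Weighed by FPKM, Nox1 was a minor catalytic transcript in every library. It made up 0.0247% ± 0.00704 (SD, n = 3) of the sum of Nox1 and Cybb in control, 3.03% ± 0.0691 with RANKL and 0.856% ± 0.0950 under RANKL + UD. Cybb exceeded Nox1 by 3097 to 5450 times in control, by 31.1 to 32.5 times with RANKL, and by 106 to 132 times under RANKL + UD. The ranges of the groups lie apart. These ratios describe transcripts and not protein or activity.

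**Figure D2:**
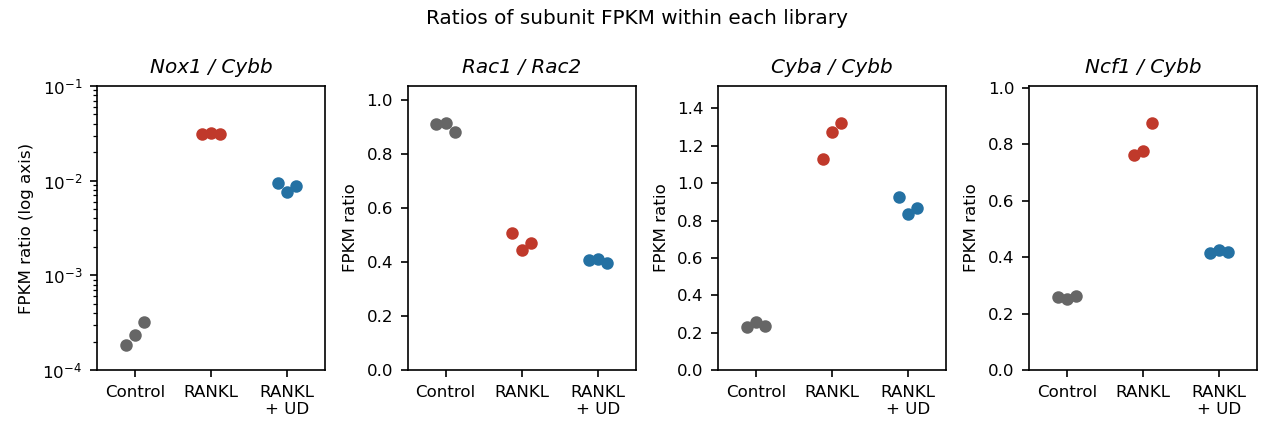
Ratios of subunit FPKM within each library for Nox1 to Cybb (log axis), Rac1 to Rac2, Cyba to Cybb and Ncf1 to Cybb, with points for the 3 libraries of each group. The Nox1 to Cybb ratio is highest with RANKL and intermediate under RANKL + UD, and the Rac1 to Rac2 ratio is 0.904, 0.474 and 0.404 in the order of the groups.

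Cyba, which encodes the p22phox partner of both catalytic subunits, was highest with RANKL. Its gene is at chr8:123151515-123159669 on the minus strand. FPKM was 137, 153 and 138 in control, 155, 174 and 167 with RANKL, and 151, 137 and 146 under RANKL + UD. The RANKL libraries were above all others, while control and RANKL + UD overlapped. Cyba rose with RANKL (log2 change 0.30, SE 0.0576, edgeR adjusted p = 0.000128) and fell in RANKL + UD against RANKL (log2 change -0.28, SE 0.0576, edgeR adjusted p = 0.000568). Between RANKL + UD and control no difference was called, with a log2 change of 0.02 and a 95% interval from -0.10 to 0.14 (edgeR adjusted p = 0.776). The mean ratio of Cyba to Cybb FPKM was 0.240 in control cells, 1.24 after RANKL and 0.877 where UD was added.

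Ncf1, which encodes the organizer p47phox, fell at each step. Its gene is at chr5:134248907-134258479 on the minus strand. FPKM was 155, 149 and 153 in control, 105, 106 and 111 with RANKL, and 67.8, 69.6 and 70.3 under RANKL + UD. The groups were separate and ordered, with control highest and RANKL + UD lowest. Ncf1 fell with RANKL (log2 change -0.43, SE 0.0447, edgeR adjusted p = 4.83e-08) and again, 1.64-fold, in RANKL + UD against RANKL (log2 change -0.71, SE 0.0453, edgeR adjusted p = 1.67e-10). Against control, RANKL + UD was 2.20-fold lower (log2 change -1.14, edgeR adjusted p = 6.51e-15). Cybb and Ncf1 thus both fell with RANKL but moved in opposite directions in RANKL + UD against RANKL, and the mean ratio of Ncf1 to Cybb FPKM was 0.257, 0.804 and 0.420 in the 3 groups. Ncf1 shares 4303 bases with Gtf2ird2 on the opposite strand, whose mean FPKM was 4.43, 3.03 and 3.07.

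Ncf4 encodes p40phox, a cytosolic subunit that binds membrane phosphoinositide. Its gene is at chr15:78129001-78146780 on the plus strand. FPKM was 87.3, 93.1 and 87.3 in control, 87.2, 92.9 and 96.2 with RANKL, and 76.2, 79.3 and 84.7 under RANKL + UD. Control and RANKL overlapped, and all RANKL + UD libraries were lower than both. Ncf4 fell in RANKL + UD against RANKL (log2 change -0.29, SE 0.0528, edgeR adjusted p = 0.000181). The rise with RANKL was small (log2 change 0.13, SE 0.0526, edgeR adjusted p = 0.0370) and lost its call without any of 5 single libraries: control 1, control 3, RANKL 2, RANKL 3 or RANKL + UD 2, with adjusted p of 0.102, 0.0797, 0.0905, 0.122 and 0.0505. When libraries were scaled by total counts alone it was 0.04 (adjusted p = 0.501). RANKL + UD was lower than control by a log2 change of -0.16 (edgeR adjusted p = 0.0171), and this call was lost with no filter on low values (adjusted p = 0.0543) and without control 2, RANKL + UD 1 or RANKL + UD 2, with adjusted p of 0.0885, 0.0978 and 0.0630.

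Together, Cybb, Cyba, Ncf1 and Ncf4 summed to an FPKM of 967 to 989 in control, 484 to 509 with RANKL and 449 to 468 under RANKL + UD. Cybb alone was 60.1% to 61.2% of this sum in control, 25.3% to 28.3% with RANKL and 35.6% to 36.5% under RANKL + UD. The sum was therefore lower in every RANKL + UD library than in every RANKL library while the share of Cybb was higher.

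The organizer and activator that work with NOX1 were at or near the limit of detection. Noxo1, at chr17:24915208-24919503 on the plus strand, had 14, 20 and 18 reads in control, 18, 7 and 10 with RANKL, and 17, 18 and 9 under RANKL + UD. Its FPKM did not exceed 0.37 in any library, and the groups overlapped. Noxo1 was below the filter. Without the filter its log2 change was -0.62 with RANKL (95% interval -1.59 to 0.36) and 0.38 in RANKL + UD against RANKL (95% interval -0.61 to 1.37), with edgeR adjusted p of 0.423 and 0.680. Differences within these intervals are not excluded by the counts. It shares 2581 bases with Tbl3 on the opposite strand, at a mean FPKM of 5.23, 4.71 and 5.34. Noxa1, at chr2:24975679-24985161 on the minus strand, had 0 reads in all 9 libraries, which allows an FPKM of up to 0.0940 to 0.116 in a library if 3 reads are taken as the limit for counting error. No RANKL-associated rise of Noxo1 or Noxa1 like that of Nox1 was seen in these counts.

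The Rac GTPases switch the assembled oxidase on and also remodel the actin cytoskeleton. Rac2, the form largely restricted to blood cells, is at chr15:78443367-78456983 on the minus strand. FPKM of Rac2 was 82.5, 86.0 and 93.7 in control, 119, 129 and 132 with RANKL, and 148, 149 and 154 under RANKL + UD. The groups were separate, with control lowest and RANKL + UD highest. Rac2 rose with RANKL (log2 change 0.62, SE 0.0529, edgeR adjusted p = 1.79e-09). The further rise in RANKL + UD against RANKL was 1.12-fold (log2 change 0.16, SE 0.0523, edgeR adjusted p = 0.0171), and it was not called without RANKL 1 (0.12, adjusted p = 0.1002) or without RANKL + UD 3 (0.15, adjusted p = 0.0775). Against control it was 1.72-fold higher in RANKL + UD (log2 change 0.79, edgeR adjusted p = 4.82e-11).

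Rac1, the widely expressed form, is at chr5:143489389-143513791 on the minus strand. FPKM of Rac1 was 75.2, 78.8 and 82.8 in control, 60.4, 57.1 and 62.4 with RANKL, and 60.4, 61.3 and 61.0 under RANKL + UD. Control was above both treated groups, which overlapped. Rac1 fell with RANKL (log2 change -0.31, SE 0.0489, edgeR adjusted p = 1.47e-05) and was lower in RANKL + UD than in control (log2 change -0.37, edgeR adjusted p = 1.43e-06). RANKL + UD and RANKL were not called different, with a log2 change of -0.06 and a 95% interval from -0.17 to 0.04 (edgeR adjusted p = 0.329). The mean ratio of Rac1 to Rac2 FPKM was 0.904 ± 0.0172 (SD, n = 3) in control, 0.474 ± 0.0317 with RANKL and 0.404 ± 0.00817 under RANKL + UD. Daglb overlaps Rac1 by 2309 bases on the opposite strand, at a mean FPKM of 6.68, 2.71 and 2.55.

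**Figure D3:**
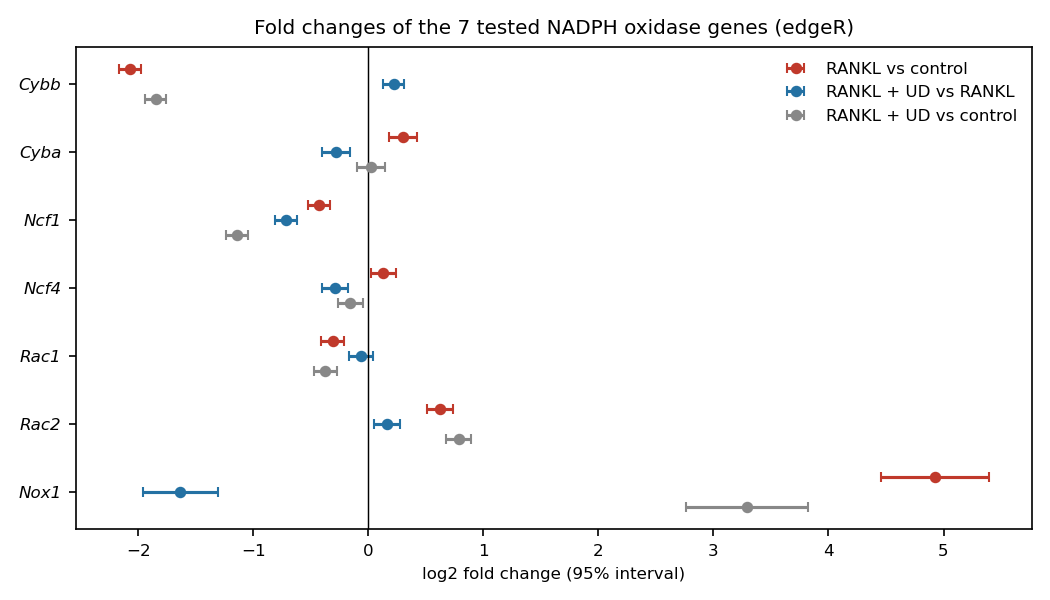
Log2 fold changes of the 7 tested oxidase genes from edgeR, with 95% intervals, for RANKL against control, RANKL + UD against RANKL and RANKL + UD against control. Nox1 has the largest changes among them, 4.93 and -1.63 for the first pair of comparisons, and the intervals of Rac1 in RANKL + UD against RANKL and of Cyba in RANKL + UD against control include 0.

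Other oxidase genes were checked for reads. The catalytic subunit gene Nox4 had 7 reads over the 9 libraries, and Nox3, Duox1, Duox2, Duoxa1 and Duoxa2 had 1, 4, 5, 9 and 0, so none of these 6 was tested. Cybb and Nox1 were the catalytic subunit genes among those examined that passed the filter.

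The counts of called genes in the lists that follow stand beside 27.3% of all tested genes that rose and 30.2% that fell with RANKL, and 18.6% and 20.2% in RANKL + UD against RANKL. Of 6 oxidase partner genes, 5 were tested. With RANKL 2 rose and 1 fell (1 and 3 under total counts alone), with a median log2 change of -0.02 beside -0.03 over all tested genes. In RANKL + UD against RANKL 1 rose and 2 fell (2 and 2 under total counts, 0 and 2 with RLE size factors or DESeq2). Cybc1, a chaperone needed for gp91phox and p22phox protein, had mean FPKM of 12.9, 11.3 and 9.76 in the 3 groups and fell in RANKL + UD against RANKL (log2 change -0.29, edgeR adjusted p = 0.00241). Sh3pxd2b, a podosome scaffold related to p47phox, fell by 0.27 on the log2 scale (edgeR adjusted p = 0.000349). Prdx6, a peroxiredoxin, rose by 0.14 (edgeR adjusted p = 0.0467), and lost its call in 11 of 18 alternative fits.

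Rac is loaded with GTP by exchange factors, and 13 of 14 listed genes for these factors and their partners were tested. With RANKL 4 rose and 7 fell, the largest rise being that of Dock5 (log2 change 2.42, edgeR adjusted p = 3.91e-19), an exchange factor known for its role in osteoclast podosomes. In RANKL + UD against RANKL 0 rose and 5 fell, which became 3 and 4 under total counts alone, and the median was -0.03 beside 0.00497 over all tested genes. Of the 5, Arhgef7 (log2 change -0.13) kept its call in 10 of 18 alternative fits. Those with the largest changes are Swap70 (log2 change -0.43), Dock5 (-0.32) and Tiam1 (-0.31), each of which had risen with RANKL, by 0.77, 2.42 and 0.84. The others of the 5, Dock2 (-0.28) and Arhgef7, had already fallen with RANKL, with log2 changes of -0.25 and -0.44.

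Of 9 GTPase-activating and GDP-dissociation proteins of Rac, 7 were tested, and in RANKL + UD against RANKL 2 rose and 2 fell (4 and 2 with total counts). Arhgap25, a Rac GTPase-activating protein of blood cells, fell (log2 change -0.89, edgeR adjusted p = 1.12e-09) with a mean FPKM of 12.9 with RANKL and 7.35 under RANKL + UD. Arhgap15 rose by 0.52 and Racgap1 by 0.37, after changes of -2.83 and -1.01 with RANKL. Arhgap15 passed the filter only through its control libraries, which favoured its fall with RANKL. Its FPKM was 0.39 to 0.49 with RANKL and 0.63 to 0.7 under RANKL + UD.

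Of 10 listed kinases of p47phox 8 were tested, and in RANKL + UD against RANKL 2 rose and 2 fell (4 and 2 with total counts, 1 and 2 with RLE size factors or DESeq2). Akt1, a kinase that rose (log2 change 0.15), kept its call in 11 of 18 alternative fits. Mapk3, which encodes ERK1, fell by 0.52 (edgeR adjusted p = 0.000119), and Prkcd, a protein kinase C, by 0.27 (edgeR adjusted p = 0.000559). Prkca, another protein kinase C, rose by 0.42 (edgeR adjusted p = 0.000833), after a rise of 2.20 with RANKL. Prkca passed the filter only through its RANKL and RANKL + UD libraries, with an FPKM of 0.5 to 0.54 in control, which favoured that rise.

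Of 9 transcription factors known to act on phagocyte oxidase genes 8 were tested, and with RANKL 1 rose and 6 fell (1 and 5 with DESeq2), with a median log2 change of -0.50 beside -0.03 over all tested genes. Cebpb, whose log2 change was -0.41, kept this call in 12 of 18 alternative fits. Irf8, a myeloid factor, fell by 2.03 with RANKL and by 0.48 in RANKL + UD against RANKL (edgeR adjusted p = 2.62e-14 and 0.000508). Spi1, which encodes PU.1, rose by 0.64 with RANKL and fell by 0.37 in RANKL + UD against RANKL (edgeR adjusted p = 6.73e-08 and 0.000183). Cebpb fell by 0.90 in RANKL + UD against RANKL (edgeR adjusted p = 0.000484), and 1 gene of the list rose and 3 fell in that comparison (1 and 4 with RLE size factors or DESeq2). Spi1 and Cybb thus moved in opposite directions in both comparisons.

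**Figure D4:**
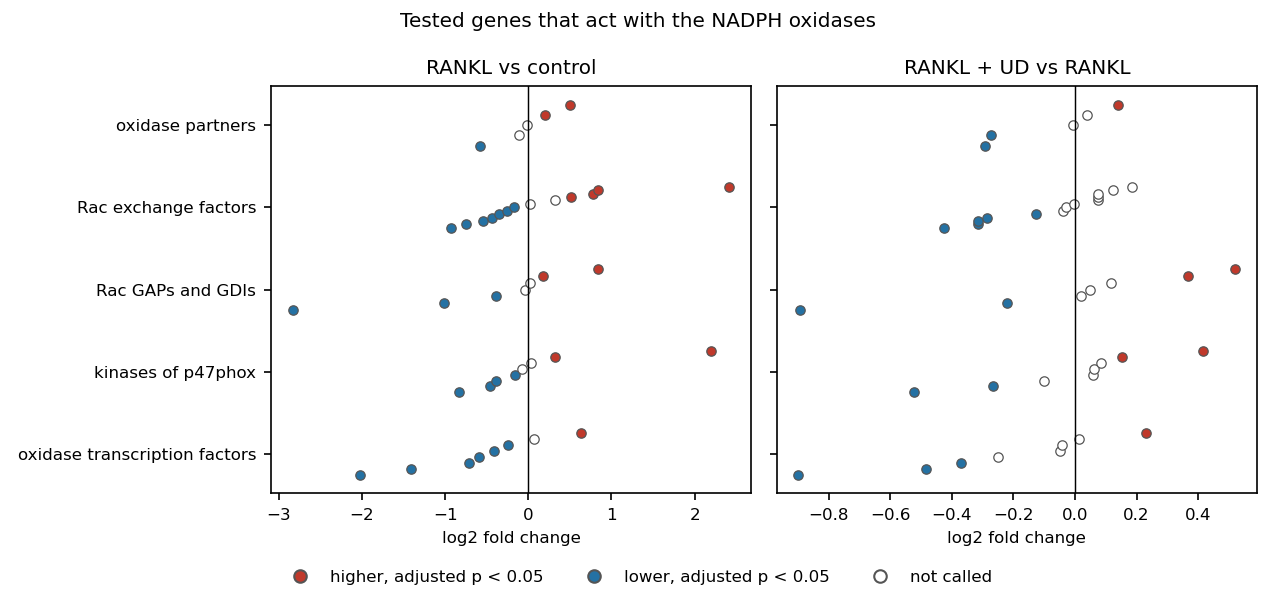
Log2 fold changes of the tested genes in 5 lists that act with the NADPH oxidases, for RANKL against control and for RANKL + UD against RANKL, with filled points for adjusted p under 0.05. Of the 13 Rac exchange factors and partners in RANKL + UD against RANKL, 5 are called lower and 0 higher with TMM scaling as plotted. Under total counts alone 4 are lower and 3 higher, and Arhgef7, among the 5, kept its call in 10 of 18 alternative fits. Of all tested genes, 20.2% were called lower and 18.6% higher.

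For 4 members, the tested genes outside the set with the most similar profile were found by Pearson correlation of log2(FPKM + 1) over the 9 libraries. The libraries form 3 tight groups, so many genes reach high values. For Nox1 they were Gab2 (r = 0.998), Clic4 (0.997) and Parvb (0.997), among 299 genes over 0.95. For Cybb they were Add3, Rassf4 and Tlr7 (0.999 each, 818 genes over 0.95). For Ncf1 they were Shisa5 (0.997), Bcl6 (0.995) and Tec (0.995), with 201 genes over 0.95, and for Rac2 Ppp2cb (0.997), Cluh (0.994) and Dnajc2 (0.994), with 248.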

How the data were processed

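RNA from 9 RAW264.7 libraries (3 groups of 3) was analysed as counts per gene and FPKM. The authors deposited both in an annotated table. The deposited counts are raw, and the deposited FPKM was recomputed from counts, exon length and library total within 0.011 for 100% of genes. Per the labels, libraries were poly(A)-selected and strand-marked, and the build is mm10; the aligner and counter are not given in the sources used here. Of 52073 genes shared with the GRCm38 annotation, 1472 had identical coordinates, so table coordinates are given as deposited and promoter windows separately on GRCm38.p6. Columns named for the model group were taken as RANKL, the study's name for its induced group.

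Counts were tested with edgeR 4.0.16 (limma 3.58.1, DESeq2 1.42.0 and R 4.3.3 for alternatives; Python 3.11.15 for tables), with TMM scaling, all 9 libraries, genes reaching an FPKM of 1 in 3 or more libraries, and Benjamini-Hochberg adjustment over 11995 genes. The tests were checked on simulated counts. Named genes are the members, up to 3 per list with the largest called change in RANKL + UD against RANKL, Nox4, Cybc1, Spi1 and Irf8, and the closest profiles. Acp5, Cd68, Adgre1, Dock2, Arhgef7, Akt1 and the overlapping genes were named after their values were seen. Some results of the listed genes are not reported here. The members and lists were chosen with earlier results of these data known. Replicate libraries differed by more than counting noise. Same-numbered libraries of different groups deviated with correlations of -0.0296 to 0.0973, and differently numbered ones with -0.102 to 0.0644. The highest values were thus of same-numbered libraries, though all were small. The numbers were not taken as pairs in the main fit, and a replicate block was fitted as an alternative. The edgeR intervals include the estimated spread between libraries, whereas floors from counts cover counting error only. Alternatives were other filters, scalings and tools, only the 6 libraries compared, a replicate block and leaving out each library.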

Additional observations from a re-analysis of the deposited data

How the results depend on the processing

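Over 18 alternative fits of 7 genes and 3 comparisons (378 values), 358 kept their direction and side of the threshold, 14 kept the direction but lost the call, and 6 changed sign. The sign changes were in differences that were not called. Rac1 in RANKL + UD against RANKL was 0.0225 with total counts, 0.0228 with limma on log2(FPKM + 1) and 0.0231 with limma on log2(FPKM + 0.1), and Cyba in RANKL + UD against control lay between -0.0150 and 0.0710 when single libraries were left out. The lost calls were those of Ncf4 against control and of Rac2 in RANKL + UD against RANKL, so that 1 to 2 oxidase genes rose in that comparison as libraries were left out. Over all genes, 2233 rose and 2418 fell in RANKL + UD against RANKL, which became 3350 higher with total counts, and 1556 and 1536 lower with limma at pseudocounts of 1 and 0.1. The share of higher genes among those called went from 48.0% to 66.2%, 65.7% and 66.0% there, and in RANKL against control from 47.5% to 36.8% with total counts. The scalings moved the median of all genes by at most 0.0882. The TMM factors were 0.959 to 0.962 for RANKL and 1.01 to 1.03 for the others. Nox1 was 2.17, -1.10 and 1.08 with limma on log2(FPKM + 1), since the added 1 is large beside its FPKM. The replicate block changed no call of a member, with log2 changes in RANKL + UD against RANKL of -1.64 for Nox1 and 0.22 for Cybb, and 2347 genes higher and 2518 lower. Among listed genes, the fall of Cebpb with RANKL (-0.41) lost its call in 6 of 18 fits, and in RANKL + UD against RANKL Arhgef7 lost it in 8, Akt1 in 7, Tiam1 in 2 and Arhgap15 in 1, beside Prdx6 in 11. Depth limits Nox1 in control, Noxo1 and Noxa1.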
